A study of Mus musculus with 24 samples.

Results

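The comparison described here is that of *tfeb tfe3* DKO against WT MEFs (mouse embryonic fibroblasts) under MK-8722, a direct activator of AMPK. It rests on 8 of the 24 mRNA libraries of the study, 4 of each genotype, chosen by the genotype and treatment in the sample labels (Tfeb/Tfe3 KO or Wild type, with MK8722). The labels name Tfeb/Tfe3 KO and Wild type MEFs, each treated with DMSO, MK8722 or Torin-1, in 4 libraries per group. The same 2 genotypes under DMSO, the vehicle, served to tell which differences were already there without AMPK activation, and the 8 libraries under torin1, a catalytic MTOR inhibitor, were kept as another measure. Dose and time of treatment are not in the labels. According to the methods, the WT and the DKO cells are a pair of MEF lines obtained from another laboratory, so the genotype and the line cannot be told apart, and each p-value measures the spread between cultures of these lines.

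TFEB and TFE3 are transcription factors of the MiT/TFE family, which also holds MITF and TFEC. They bind an E-box sequence called CLEAR in the promoters of genes for lysosomal hydrolases, the lysosomal proton pump and autophagy proteins. MTORC1 phosphorylates TFEB and TFE3 at the lysosome and holds them in the cytoplasm, and dephosphorylation lets them enter the nucleus. AMPK is the kinase that senses a fall in cellular energy. It restrains MTORC1 and also acts on TFEB and TFE3, and the genotype difference under MK-8722 shows which transcripts stand at another level in cells made without both factors while AMPK is active.

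The targeted genes were examined first. *Tfeb* (ENSMUSG00000023990) stood at 19.3, 15.5, 17.3 and 17.7 CPM (counts scaled to library size with TMM factors) in the WT libraries under MK-8722 and at 1.85, 2.09, 2.20 and 1.97 CPM in the *tfeb tfe3* DKO libraries. All 4 DKO libraries lay far below all 4 WT libraries, with a log2 difference (DKO minus WT) of -3.10 (standard error 0.098, adjusted p = 1.51e-17 by the quasi-likelihood method of edgeR after Benjamini-Hochberg correction). *Tfe3* mRNA was not lower in DKO: it stood at 101, 94.6, 98.0 and 101 CPM in WT and 115, 116, 115 and 118 CPM in DKO, a log2 difference of 0.23 that is under a fold of 1.2, so the loss of TFE3 rests on the label. *Mitf*, the third member, was higher in DKO, with 22.8 ± 5.47 CPM against 5.90 ± 0.696 CPM in WT (SD, n = 4 each). Its log2 difference was 1.95 (standard error 0.14) under MK-8722 and 1.64 (standard error 0.13) under DMSO. *Tfec* did not reach the count needed for a test.

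The libraries under MK-8722 held between 25185165 and 30977889 estimated counts, and RNA integrity numbers were 9.8 or 9.9 apart from 7.9 in DKO replicate 3. All 9 fibroblast markers were tested. Their summed level was 4342 to 6615 CPM in WT and 4519 to 5550 CPM in DKO under MK-8722, a sum carried by *Vim*, *Col1a1* and *Col1a2*. Single markers differed between the lines in both directions: *Thy1* was at 2.56 to 4.51 CPM in WT against 0 to 0.0385 CPM in DKO, whereas *Prrx1* was at 66.5 to 84.8 against 173 to 209 CPM and *Pdgfra* at 4.20 to 7.41 against 13.1 to 22.4 CPM, and *Pdgfrb* and *Twist1* also lay higher in every DKO library. Marker lists of epithelial cells, macrophages, endothelium, skeletal muscle, adipocytes and melanocytes summed to at most 11.4 CPM in any library under MK-8722, and *Adgre1*, *Myod1*, *Lep*, *Dct* and *Tyr* were at 0 in all 8 libraries. Cells of 1 passage gave 1 library per treatment, with passages 7, 8, 9 and 11 of WT and 8, 9, 10 and 11 of DKO. The WT libraries of passage 11 (replicate 2 under MK-8722) stood apart from the other WT libraries, with a standard deviation of log2 CPM differences of 0.37 from the rest of the group against 0.12 to 0.20 for the other WT libraries under MK-8722. In bulk libraries, fewer cells of a kind and less RNA per cell cannot be told apart.

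Much of the transcriptome differed between the lines under MK-8722, and most of these genes also differed under DMSO. Calls needed an adjusted p below 0.05 together with a difference of 1.2-fold or more. Of 15401 genes tested, 3908 (25.4%) were lower and 3588 (23.3%) higher in the DKO cells under MK-8722, 7496 (48.7%) in all. Under DMSO it was 3796 (24.6%) lower and 3621 (23.5%) higher, 7417 (48.2%) in all. Of the genes lower under MK-8722, 3132 (80.1%) were also called lower under DMSO, 725 (18.6%) were not called there, and 51 were called in the opposite direction. Of the genes higher, 2872 (80%) were also higher under DMSO, 712 (19.8%) were not called there, and 4 were opposite. All DKO libraries lay below all WT libraries under MK-8722 for 4300 genes (27.9% of those tested) and above them for 4118 (26.7%).

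The difference of the genotype differences, that is, the MK-8722 difference minus the DMSO difference, was tested as an interaction, a contrast of 16 libraries in the fit to all 24. It was lower under MK-8722 for 734 genes (4.77%) and higher for 317 (2.06%) at an adjusted p under 0.05. The DMSO and MK-8722 libraries of the same line and passage deviated together from their group means (r from 0.293 to 0.922 across genes, which are not independent), and with the culture as a block, a fit added after the data were seen, the counts were 1341 lower and 961 higher. A gene not called under DMSO may still differ there, so genes were counted as alike only where the 95% interval of the DMSO log2 difference lay within a fold of 1.2 either way, that is, within 0.263 on the log2 scale. 2916 genes (18.9%) met this bound. Of these, 179 were called lower and 98 higher in DKO under MK-8722, and 128 (0.831% of all genes tested) and 37 (0.24%) also had an interaction of the same sign. These 128 and 37 genes are the ones described below as alike under DMSO and lower, or higher, in DKO under MK-8722. *Slc38a7*, with a DMSO interval of -0.12 to 0.26, was among the last inside the bound, and *Tecpr1*, with -0.26 to -0.0061, among the first outside (limit 0.263).

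**Figure D1:**
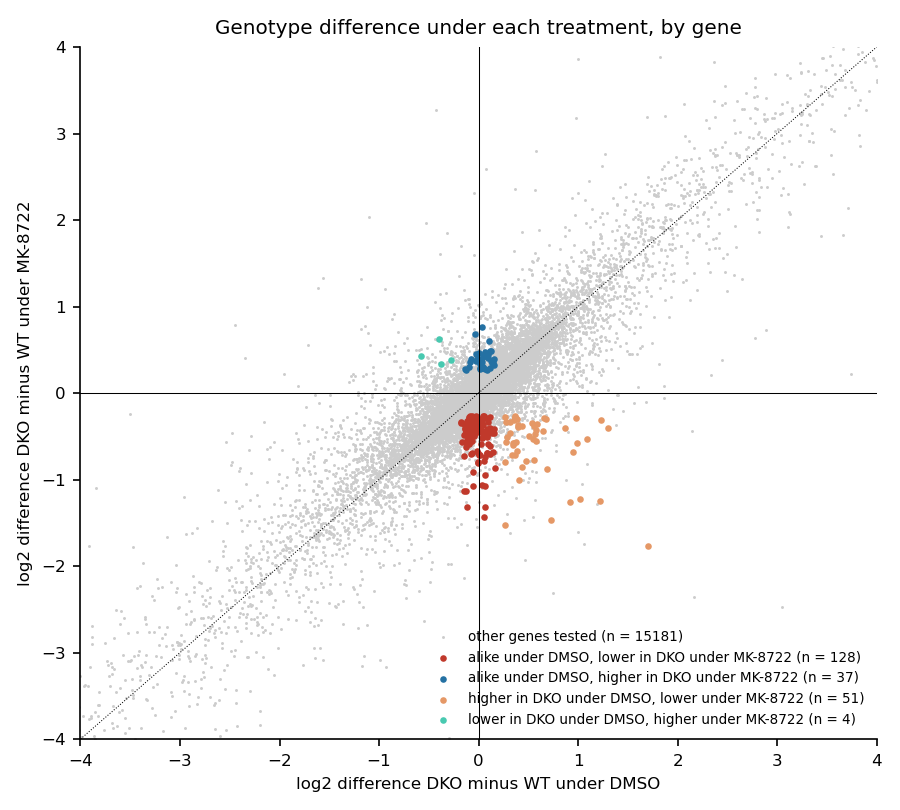
Each point is 1 gene, with the log2 difference DKO minus WT under DMSO on the horizontal axis and under MK-8722 on the vertical axis (n = 4 libraries per group). Most genes lie along the dotted line of equal differences, while the 128 genes alike under DMSO and lower under MK-8722 form a column from -0.264 down to -1.43, and the 37 higher ones reach up to 0.77. Genes with a difference over 4 on either axis, 521 in all, lie outside the plot.

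The 128 genes alike under DMSO and lower in DKO under MK-8722 were led by lysosomal genes. Their log2 differences ranged from -1.43 to -0.264 with a median of -0.435, against a median of -0.0128 over all genes tested, and 31 of them exceeded a fold of 1.5 and 8 a fold of 2. *Neu1* (ENSMUSG00000007038, chromosome 17, 34931253 to 34935953, plus strand, GRCm38), which encodes the lysosomal sialidase, had the largest difference. It stood at 101, 91.6, 99.9 and 88.7 CPM in WT and 37.0, 35.1, 36.0 and 33.0 CPM in DKO under MK-8722, while under DMSO it stood at 25.4, 22.7, 26.0 and 23.3 CPM in WT and 25.4, 24.2, 25.0 and 26.3 CPM in DKO. The genotypes shared 1 range under DMSO and did not overlap under MK-8722, where every WT library had more than 2 times the level of every DKO library. The log2 difference was -1.43 (standard error 0.061, edgeR quasi-likelihood adjusted p = 5.79e-15) under MK-8722 and 0.052 (95% interval -0.080 to 0.18) under DMSO. *Ctsa* (ENSMUSG00000017760, chromosome 2, 164832873 to 164841032, plus strand), which encodes cathepsin A, the protective protein that forms a complex with the sialidase, behaved alike: 288, 286, 292 and 255 CPM in WT and 139, 122, 132 and 143 CPM in DKO under MK-8722, against 126 to 136 and 126 to 142 CPM under DMSO. The DKO libraries under MK-8722 overlapped the DMSO libraries of both genotypes, and the log2 difference from WT under MK-8722 was -1.06 (standard error 0.065, edgeR quasi-likelihood adjusted p = 2.72e-12).

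*Mfsd1*, a transporter of the lysosomal membrane, stood at 167, 175, 168 and 169 CPM in WT and 68.1, 64.4, 67.2 and 72.4 CPM in DKO under MK-8722. Under DMSO it stood at 73.3 to 81.2 CPM in WT and 69.7 to 71.9 CPM in DKO, a log2 difference of -0.12 (95% interval -0.21 to -0.017) that became -1.32 (standard error 0.047) under MK-8722. The 4 WT libraries under MK-8722 lay close together and far above the rest. *Amdhd2*, which encodes an enzyme of amino sugar catabolism, stood at 40.3, 36.2, 38.3 and 29.8 CPM in WT and 14.5, 15.5, 13.5 and 14.9 CPM in DKO, a log2 difference of -1.31 (standard error 0.088). *Slc38a7*, a lysosomal exporter of glutamine, stood at 74.3, 84.9, 79.1 and 72.7 CPM in WT and 33.8, 33.6, 33.2 and 47.5 CPM in DKO. DKO replicate 4 was the highest of its group for *Slc38a7*, still below every WT library, and the log2 difference was -1.07 (standard error 0.091). *Clcn7*, the lysosomal chloride and proton exchanger, stood at 139, 145, 139.5 and 132 CPM in WT and 81.6, 73.2, 76.1 and 88.3 CPM in DKO, with a log2 difference of -0.80 (standard error 0.050) against -0.0064 (standard error 0.050) under DMSO.

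The lipid hydrolase gene *Galc* (galactosylceramidase), which is deficient in a lysosomal storage disease, differed by -0.80 (standard error 0.081) on the log2 scale under MK-8722. It ranged from 28.9 to 35.8 CPM in WT and from 16.7 to 20.6 CPM in DKO. *Washc2* and *Washc5*, subunits of the WASH complex that builds actin on endosomes, differed by -0.95 (standard error 0.042) and -0.86 (standard error 0.041). Both rose in WT cells with MK-8722, by 1.1 and 0.96 on the log2 scale, and differed by 0.083 and -0.074 between treated and untreated DKO cells. *Arap1*, a GTPase-activating protein of membrane traffic, differed by -0.79 (standard error 0.052). *Vat1*, which encodes an abundant vesicle amine transport protein, ranged from 649 to 777 CPM in WT and from 315 to 351 CPM in DKO, a difference of -1.13 (standard error 0.065). Per transcript length, *Vat1* was at 424 TPM (mean abundance scaled for transcript length and depth) in WT and 187 TPM in DKO under MK-8722, *Neu1* at 63.4 and 23.1 TPM, and *Galc* at 21 and 11.7 TPM. The genes of this pattern thus spanned a range of levels, though all 128 averaged 2 log2 CPM or more.

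**Figure D2:**
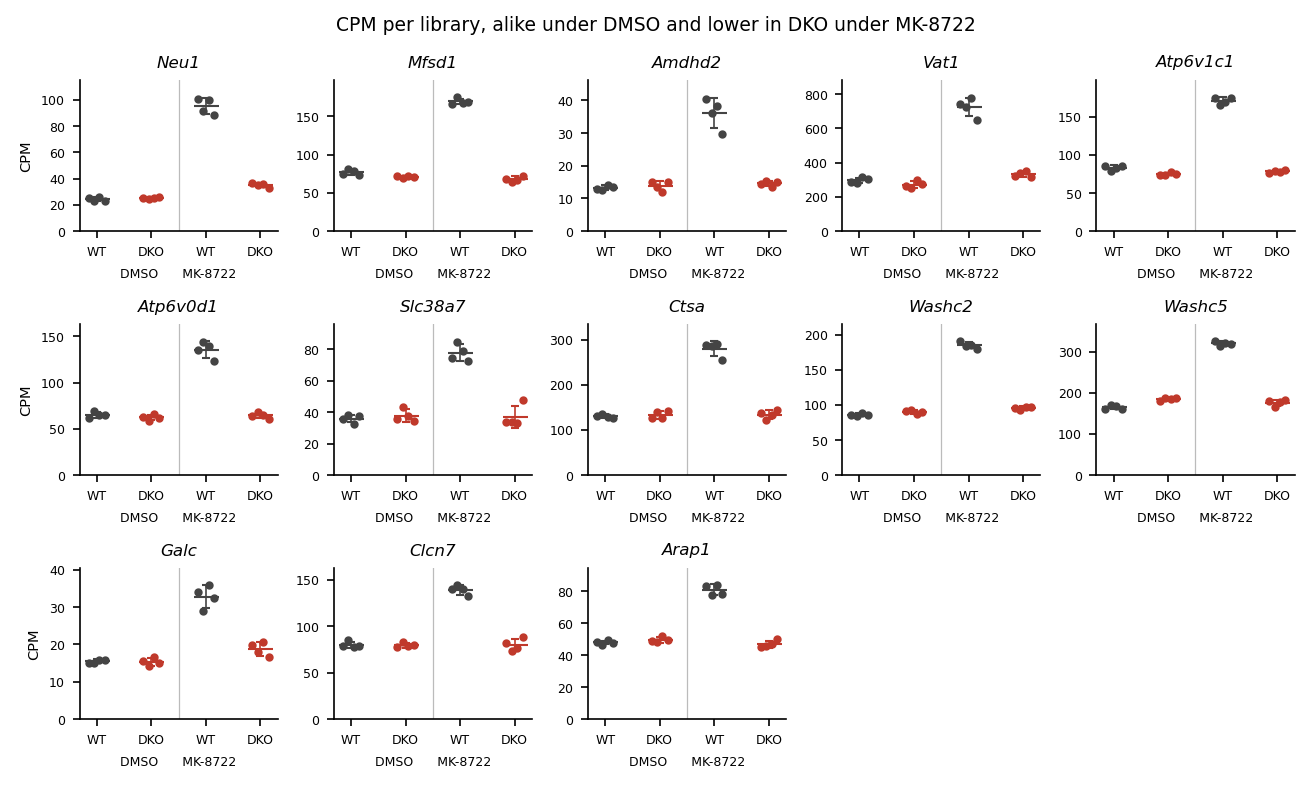
CPM in each library (points) with the mean and SD (bars, n = 4) for 13 genes named by rule among those alike under DMSO and lower in *tfeb tfe3* DKO under MK-8722, WT in grey and DKO in red. In each panel the 4 WT libraries under MK-8722 stand above the other 12, as for *Neu1* with 88.7 to 101 CPM against at most 37.0 CPM in DKO. The naming rule required that the genotypes not overlap under MK-8722.

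The change that opened the gap was mostly a rise in WT cells. Among the 128 genes, MK-8722 raised the level in WT for 98 and in DKO for 7, at the same thresholds. Over all genes tested, MK-8722 raised 1583 (10.3%) in WT and 843 (5.47%) in DKO. It lowered 904 (5.87%) in WT and 495 (3.21%) in DKO. None of the 128 fell in WT, 5 fell in DKO, and 25 passed neither test. The median response to MK-8722 over the 128 genes was 0.41 in WT and 0.0054 in DKO on the log2 scale. The same 16 libraries chose these genes, so the counts describe the genes and test nothing.

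The promoters of these genes were read for the CLEAR-type E-box TCACGTGA, a form of the site that TFEB and TFE3 bind. The windows run from 250 bases before to 50 bases after each transcription start in RefSeq's promoters on GRCm38.p6, and the motif reads the same on both strands and contains the shorter E-box CACGTG. Of the 128 genes, 98 had a window, and 23 of these (23.5%) held TCACGTGA, against 228 of 10562 tested genes with a window (2.16%) and 38 of 2138 genes (1.78%) that were alike under DMSO and not called under MK-8722. CACGTG was held by 40 of the 98 genes (40.8%) against 1229 of 10562 (11.6%). Among the 37 genes alike under DMSO and higher in DKO under MK-8722, 31 had a window, of which 0 held TCACGTGA and 2 (6.45%) held CACGTG. These are matches of letters, and binding was not measured. The stretches with the motif in capitals are shown for 6 of the genes above, 5′ to 3′ on the strand of the gene.
Ctsa, chr2:164833749-164833778, plus strand: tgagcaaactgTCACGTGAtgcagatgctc
Mfsd1, chr3:67582686-67582715, plus strand: tgagcaaccgtTCACGTGAgcacggagagg
Amdhd2, chr17:24163739-24163768, minus strand: tcagctgagagTCACGTGAtgcgacctggc
Atp6v0d1, chr8:105566050-105566079, minus strand: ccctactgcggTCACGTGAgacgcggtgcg
Washc2, chr6:116207965-116208032, plus strand: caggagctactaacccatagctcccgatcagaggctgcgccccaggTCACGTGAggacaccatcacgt
Clcn7, chr17:25133386-25133415, plus strand: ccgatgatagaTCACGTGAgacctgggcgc
The motif begins 13 bases before the start in *Ctsa*, 71 before it in *Mfsd1*, 24 before it in *Amdhd2*, 4 before it in *Atp6v0d1* and 22 before it in *Washc2*, and 7 bases after it in *Clcn7*. In *Ctsa*, *Amdhd2* and *Clcn7* it overlaps an exon of some transcript in the GENCODE annotation, and in the other 3 genes it does not. *Ctsa* and *Clcn7* have 2 windows each, of which 1 holds the motif, and distances are from the start of that window. The *Ctsa* stretch lies inside the gene span given above, so its start is an internal one. *Neu1*, *Vat1* and *Galc* had windows without TCACGTGA, which says only that these letters are not in these windows.

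The vacuolar ATPase is the pump that acidifies lysosomes. Of its 17 subunits and accessory proteins tested, 10 were lower and 2 higher in DKO under MK-8722, with a median log2 difference of -0.361, whereas under DMSO 0 were lower and 5 higher, with a median of 0.135. The interaction was called for 14, all toward lower levels under MK-8722, and 7 of the 17 were alike under DMSO and lower under MK-8722. Of the 17, 8 met the bound for alike under DMSO. Among all genes tested, 18.9% met it and 0.831% were alike under DMSO and lower under MK-8722. Over all genes tested, 25.4% were lower and 23.3% higher under MK-8722, 24.6% and 23.5% under DMSO, and 4.77% had a lower interaction. *Atp6v1c1*, a subunit of the cytosolic sector, stood at 175, 166, 169.6 and 175 CPM in WT and 76.5, 79.0, 78.1 and 79.8 CPM in DKO under MK-8722, and all 8 libraries under DMSO lay between 73.9 and 85.2 CPM. Its log2 difference was -1.13 (standard error 0.044, edgeR quasi-likelihood adjusted p = 1.12e-15) against -0.15 (95% interval -0.24 to -0.056) under DMSO. *Atp6v0d1*, which couples the rotor to the membrane sector, stood at 136, 145, 139 and 123 CPM in WT and 63.5, 68.3, 65.5 and 60.7 CPM in DKO, a difference of -1.07 (standard error 0.057). The other subunits of this pattern, named as its members after their values were seen, were *Atp6v1a* (-0.71) and *Atp6v1b2* (-0.71) of the catalytic ring, *Atp6v1e1* (-0.33), *Atp6v1f* (-0.36) and the proteolipid *Atp6v0c* (-0.54). *Atp6v0c* shares sequence with its processed copy *Atp6v0c-ps2*, which is also among the 128, so the estimated counts of both are uncertain.

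*Atp6v0b*, another proteolipid, was outside the bound under DMSO, with a difference of 0.25 (standard error 0.060), and differed by -1.13 (standard error 0.059) under MK-8722. The accessory proteins *Atp6ap1* and *Atp6ap2* were the 2 that were higher in DKO under MK-8722, by 0.59 (standard error 0.037) and 0.28 (standard error 0.059). Under DMSO they were higher by 1.01 and 1.41, so that their difference shrank, with interactions of -0.42 (adjusted p = 8.57e-06) and -1.12 (adjusted p = 3.31e-09, both by edgeR).

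**Figure D3:**
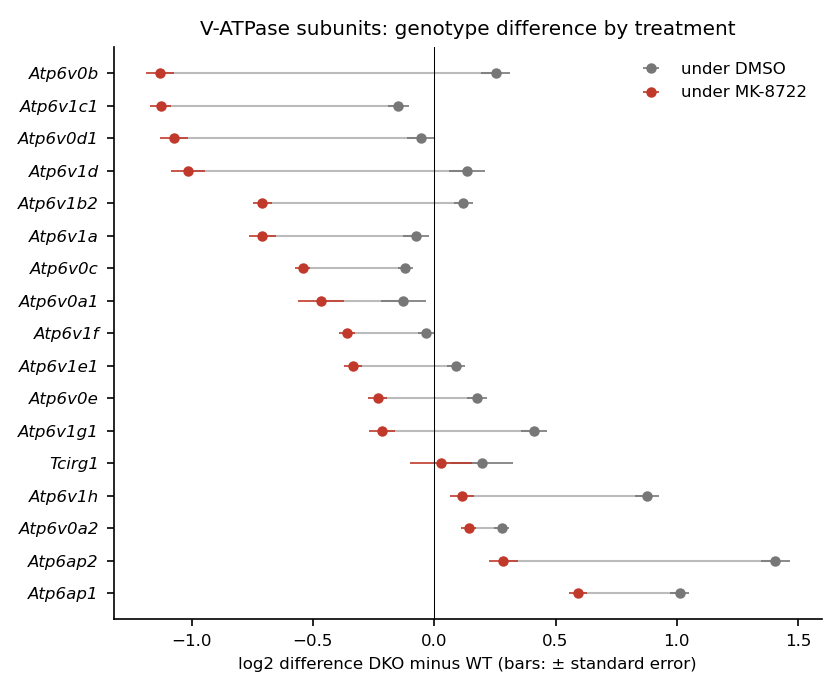
Log2 difference DKO minus WT (points, with standard errors as bars, n = 4 libraries per group) for the 17 V-ATPase genes tested, under DMSO in grey and under MK-8722 in red. Every red point lies to the left of its grey point, from *Atp6v0b* with 0.25 under DMSO and -1.13 under MK-8722 to *Atp6ap1* with 1.01 and 0.59.

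Lysosomal genes as a whole moved from a mixed genotype difference under DMSO to a mostly lower level in DKO under MK-8722. Over the lists of the V-ATPase, proteases, glycosidases and sulfatases, lipid handling and membrane proteins, 90 genes were tested, of which 55 were lower and 14 higher under MK-8722 (median -0.429) and 19 lower and 32 higher under DMSO (median 0.139). The interaction was called lower for 58 and higher for 0, and 16 of the 90 were alike under DMSO and lower under MK-8722. Of the 90, 20 met the bound for alike under DMSO. Among all genes tested, 18.9% met it and 0.831% were alike under DMSO and lower under MK-8722. Over all genes tested, the interaction was lower for 4.77%, and 24.6% were lower and 23.5% higher under DMSO. The shares over all genes under MK-8722 were 25.4% lower and 23.3% higher, against which the single lists are to be read. Among 13 proteases, 9 were lower and 1 higher, with a median of -0.523. Among 24 glycosidases and sulfatases, 15 were lower and 6 higher, with a median of -0.384. Among 23 membrane proteins and channels, 15 were lower and 2 higher, with a median of -0.455, and among 13 genes of lipid handling it was 6 and 3, with a median of -0.109. Without the libraries of passage 11, an alternative chosen after the data were seen, 56 of the 90 genes were lower and 13 higher under MK-8722, and 16 were alike under DMSO and lower under MK-8722.

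Some lysosomal genes that were lower under MK-8722 were lower under DMSO as well. *Gaa*, the acid alpha-glucosidase, differed by -1.35 (standard error 0.069) under MK-8722 and -0.64 (standard error 0.069) under DMSO, *Mcoln1*, the lysosomal calcium channel, by -1.34 (standard error 0.060) and -0.41 (standard error 0.061), and *Npc1*, the cholesterol exporter, by -1.06 (standard error 0.060) and -0.20 (standard error 0.061). Each of the 3 had an interaction, of -0.72, -0.92 and -0.86 (edgeR quasi-likelihood adjusted p = 2.49e-05, 8.27e-08 and 2.20e-07). *Asah1*, acid ceramidase, differed by -0.86 (standard error 0.054) under MK-8722 and -0.29 (standard error 0.054) under DMSO. *Ctso*, a cathepsin, was lower under both treatments, with differences of -1.96 (standard error 0.27) and -2.26 (standard error 0.29), with no called interaction (edgeR quasi-likelihood adjusted p = 0.799). Others stood higher in DKO under both. *Lamp2*, a major lysosomal membrane protein, was higher by 0.55 (standard error 0.080) under MK-8722 and 1.16 (standard error 0.080) under DMSO, and *Scarb2*, a membrane protein of lysosomes, by 0.79 (standard error 0.12) and 1.17 (standard error 0.13).

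Of 39 genes of endosome tethering, retromer and WASH, 15 were lower and 8 higher in DKO under MK-8722 (median -0.111), against 1 lower and 19 higher under DMSO (median 0.252). The interaction was lower for 25 and higher for 0. Besides *Washc2* and *Washc5*, the genes alike under DMSO and lower under MK-8722 in this list, named after their values were seen, were *Vps11* (-0.46), *Vps18* (-0.39) and *Vps33a* (-0.45), core subunits of the HOPS and CORVET tethers, and *Rabep1* (-0.31), an effector of RAB5. Among 12 genes of folliculin, the Rag GTPases and Ragulator, 7 were lower and 1 higher under MK-8722 (median -0.298) and 3 lower and 6 higher under DMSO (median 0.205). Beside both lists, the shares over all genes tested were 25.4% lower and 23.3% higher under MK-8722. Under DMSO they were 24.6% and 23.5%, and the interaction was lower for 4.77%. *Rragd*, a Rag GTPase, averaged -0.22 log2 CPM over the DMSO and MK-8722 libraries, near the floor, where an interaction is easily missed. It differed by -4.22 (standard error 0.33) under MK-8722 and by -3.06 (standard error 0.42) under DMSO, without a called interaction (edgeR quasi-likelihood adjusted p = 0.280). *Rragb* was higher by 2.67 (standard error 0.13) and 3.25 (standard error 0.13).

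Of 45 genes of the autophagy machinery, 12 were lower and 15 higher in DKO under MK-8722 (median 0.0253) and 5 lower and 18 higher under DMSO (median 0.162), with the interaction lower for 10 and higher for 1. The share lower under MK-8722 was thus near the 25.4% of all genes tested. The 2 genes alike under DMSO and lower under MK-8722 were *Gabarap* (-0.44), an autophagosome protein of the ATG8 family, and *Atg2b* (-0.33), a lipid transfer protein, both named after their values were seen. *Tecpr1*, which acts in autophagosome and lysosome repair, differed by -0.88 (standard error 0.061), and *Rb1cc1*, a subunit of the ULK1 complex, was higher in DKO by 2.0 (standard error 0.060) under MK-8722 and 1.87 (standard error 0.060) under DMSO.

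In 10 further lists the interaction was read against the 4.77% lower and 2.06% higher over all genes tested. It was called for 0 of 12 AMPK subunits and upstream kinases, 0 of 23 genes of sterol synthesis, 0 of 21 of glycolysis and glucose uptake and 0 of 23 interferon-stimulated genes. It was called higher for 1 of 27 genes of extracellular matrix and contraction, and lower for 1 of 11 NRF2 targets, 2 of 8 of iron handling, 2 of 28 of the ATF4 and amino acid response, 3 of 20 immediate early and ERK feedback genes and 6 of 26 of lipid droplets and fatty acid use. Under MK-8722, where 25.4% of all genes were lower and 23.3% higher, these lists held, in the same order, 3 lower and 4 higher, 9 and 1, 6 and 3, 0 and 9, 5 and 15, 1 and 5, 3 and 2, 5 and 9, 7 and 7, and 14 and 5. Under DMSO, where 24.6% of all genes were lower and 23.5% higher, the first lists held 3 and 5, 8 and 3, 5 and 3, 0 and 4, and 6 and 15. The later ones held 1 and 5, 3 and 1, 3 and 6, 3 and 8, and 13 and 5 there. Without the libraries of passage 11, 22 of the 23 interferon-stimulated genes were higher under MK-8722 (median 4.12), and 22 were higher under DMSO (median 3.88). *Plin2* (-0.50) and *Plin3* (-0.43), which coat lipid droplets, were alike under DMSO and lower under MK-8722, and were named after their values were seen. *Steap3*, an endosomal iron reductase, was higher in DKO by 1.81 (standard error 0.096) under DMSO and by 0.34 (standard error 0.090) under MK-8722, an interaction of -1.48 (edgeR quasi-likelihood adjusted p = 5.06e-08). *Dusp4*, an ERK phosphatase, differed by -3.09 (standard error 0.21) under DMSO and by -4.81 (standard error 0.18) under MK-8722, an interaction of -1.72 (edgeR quasi-likelihood adjusted p = 2.53e-04). In all, 27 of the 128 genes (21.1%) belonged to a list, against 2.64% of the genes tested, and 101 belonged to none. The lists were chosen with earlier results of these data known, so this overlap is a description and tests nothing.

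The 37 genes alike under DMSO and higher in DKO under MK-8722 differed by 0.264 to 0.767 on the log2 scale with a median of 0.376, and 3 exceeded a fold of 1.5. *Tcp11l2* had the largest difference. It stood at 2.75, 3.30, 2.94 and 2.80 CPM in WT and 5.32, 4.81, 5.32 and 4.63 CPM in DKO under MK-8722, and at 4.92, 6.35, 5.04 and 4.26 and 5.86, 5.04, 4.76 and 5.49 CPM under DMSO. The WT libraries under MK-8722 were the ones that stood apart, with a WT response of -0.80 and a DKO response of -0.075 on the log2 scale. *Chst1*, a sulfotransferase of keratan sulfate, stood at 25.8, 23.6, 25.3 and 20.9 CPM in WT and 40.1, 42.9, 40.7 and 29.8 CPM in DKO, a difference of 0.68 (standard error 0.098, edgeR quasi-likelihood adjusted p = 2.37e-06). *Cenpf* (ENSMUSG00000026605, chromosome 1, 189640606 to 189688086, minus strand), a kinetochore protein of dividing cells, stood at 116, 111, 117 and 110.0 CPM in WT and 195, 168, 172 and 157 CPM in DKO under MK-8722 and at 112 to 136 and 126 to 143 CPM under DMSO. Its 4 DKO libraries under MK-8722 were the highest of the 16, with a difference of 0.60 (standard error 0.069).

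*Aspm*, a protein of the spindle pole, ranged from 72.0 to 83.6 CPM in WT and from 97.8 to 121 CPM in DKO under MK-8722 (0.45, standard error 0.076). *Oip5*, a protein needed for the loading of the centromeric histone, ranged from 12.3 to 13.2 CPM in WT and from 16.8 to 19.6 CPM in DKO (0.48, standard error 0.057). *Gadd45b*, a stress-induced gene, differed by 0.45 (standard error 0.064), the linker histone gene *H1f0* by 0.46 (standard error 0.056), the exchange factor gene *Arhgef17* by 0.49 (standard error 0.053), the repressor gene *Nacc2* by 0.46 (standard error 0.046) and *Vmac* by 0.47 (standard error 0.076). In each of these genes all 4 DKO libraries lay above all 4 WT libraries, which the rule that named them required. The same order was found in 26.7% of all genes tested. *Aurka* (0.29), *Tpx2* (0.27), *Kifc1* (0.30), *Numa1* (0.30), *Tacc3* (0.40), *Spag5* (0.37) and *Mastl* (0.39), known for roles in the spindle and mitotic entry, were also among the 37 and were picked by hand after their values were seen. Of the 37 genes, 1 (2.7%, *Aurka*) belonged to any of the gene lists, against 2.64% of the genes tested, and 36 belonged to none.

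MK-8722 raised 11 of the 37 genes in DKO and 0 in WT, and lowered 6 in WT and 0 in DKO, while 21 passed neither test. The median response of the 37 was -0.148 in WT and 0.20 in DKO. Over all genes tested, MK-8722 raised 5.47% in DKO and 10.3% in WT, and lowered 5.87% in WT and 3.21% in DKO. The DMSO and MK-8722 libraries chose the 37 genes, so these counts describe the genes and test nothing. In the list of DNA replication and mitosis, 19 genes were tested, of which 1 was lower and 5 higher in DKO under MK-8722 (median 0.0905) and 4 lower and 3 higher under DMSO (median 0.0027). Over all genes tested, 25.4% were lower and 23.3% higher under MK-8722, so the share of the list called higher was near that of all genes. In the list the interaction was higher for 9 and lower for 0, and without passage 11 higher for 6. Over all genes tested it was higher for 2.06%. The median of the list under MK-8722 was 0.0156 when libraries were scaled by library size alone. *Plk1*, a mitotic kinase, was higher by 0.90 (standard error 0.067) under MK-8722 and 0.47 (standard error 0.067) under DMSO, and *Mki67*, the proliferation marker, by 0.68 (standard error 0.069) and 0.29 (standard error 0.069). *Ccne2*, a cyclin of the start of S phase, differed by -0.29 (standard error 0.073) and -0.36 (standard error 0.073).

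**Figure D4:**
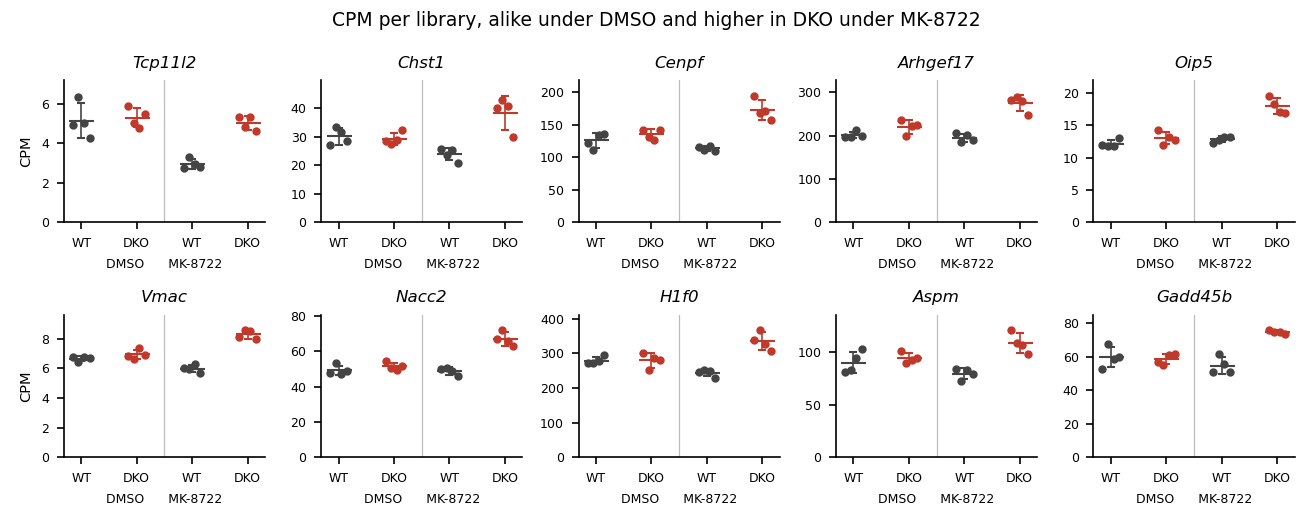
CPM in each library (points) with the mean and SD (bars, n = 4) for the 10 genes named by rule among those alike under DMSO and higher in *tfeb tfe3* DKO under MK-8722, WT in grey and DKO in red. In each panel the 4 DKO libraries under MK-8722 stand above the 4 WT libraries, as for *Cenpf* with 110.0 to 117 CPM in WT and 157 to 195 CPM in DKO under MK-8722. The naming rule required this order.

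For 51 genes (0.331%) the difference turned over, from higher in DKO under DMSO to lower under MK-8722, and for 4 genes (0.026%) the other way. *Flcn* (ENSMUSG00000032633, chromosome 11, 59791408 to 59810016, minus strand), which encodes folliculin, the activator of RRAGC and RRAGD, stood at 31.4, 31.5, 31.1 and 32.8 CPM in WT and 37.8, 44.5, 41.8 and 44.6 CPM in DKO under DMSO, and at 85.8, 79.0, 83.2 and 77.4 and 41.3, 37.5, 39.4 and 44.1 CPM under MK-8722. DKO libraries lay above WT libraries without the activator and below them with it, with log2 differences of 0.41 (standard error 0.064, edgeR quasi-likelihood adjusted p = 7.38e-06) and -1.0 (standard error 0.063, edgeR quasi-likelihood adjusted p = 4.39e-12). Its partner *Fnip1* stood at 23.2, 23.2, 23.4 and 24.7 CPM in WT and 47.7, 47.8, 44.7 and 45.8 CPM in DKO under DMSO, and at 62.4, 65.3, 67.0 and 66.3 and 53.3, 54.6, 51.3 and 54.2 CPM under MK-8722. WT cells rose past the DKO level, which itself moved by 0.20, and the difference went from 0.98 to -0.29 (standard errors 0.040 and 0.039). Against a fold of 1.2 rather than 0 the latter was not called (adjusted p = 0.212 from edgeR's glmTreat). *Hexa*, the alpha subunit of beta-hexosaminidase, went from 0.36 (standard error 0.071) to -0.57 (standard error 0.070), and ranged from 95.1 to 117 CPM in WT and from 68.9 to 78.1 CPM in DKO under MK-8722.

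*Dpp7*, a lysosomal dipeptidyl peptidase, had the largest difference under MK-8722 among those of the 51 that averaged 2 log2 CPM or more and whose genotypes did not overlap. It stood at 68.8, 68.2, 68.5 and 59.6 CPM in WT and 23, 21.5, 20.8 and 26.7 CPM in DKO, and went from 0.27 (standard error 0.088) under DMSO to -1.53 (standard error 0.085). Its promoter holds TCACGTGA 74 bases before the start, and 3 of the 39 genes with a window among the 51 (7.69%) hold the motif.
Dpp7, chr2:25356388-25356417, minus strand: ccgccagactaTCACGTGAtgctgccccgc
*Ctns*, the cystine exporter of lysosomes, stood at 24.9, 24.9, 23.5 and 25.0 CPM in WT and 13.3, 13.7, 14.2 and 12.2 CPM in DKO under MK-8722, and at 7.76 to 8.19 and 11.9 to 14.1 CPM under DMSO. The genotypes did not overlap under either treatment and stood in opposite order, with differences of 0.68 (standard error 0.061) and -0.88 (standard error 0.058). *Dusp3*, a dual-specificity phosphatase, went from 0.44 (standard error 0.059) to -0.86 (standard error 0.059). *Gpnmb*, a lysosomal glycoprotein, went from 1.70 (standard error 0.35) to -1.77 (standard error 0.25). Of the 51 genes, MK-8722 raised 50 in WT and 7 in DKO, with median responses of 1.08 and 0.0075. Over all genes tested, it raised 10.3% in WT and 5.47% in DKO. The DMSO and MK-8722 libraries chose the 51 genes, so these counts describe the genes and test nothing.

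In the other direction, *Atoh8*, a transcription factor, stood at 3.25, 2.79, 2.75 and 2.02 CPM in WT and 5.56, 3.73, 3.85 and 3.55 CPM in DKO under MK-8722, and went from -0.40 (standard error 0.16) under DMSO to 0.63 (standard error 0.17). *Mxd4*, a MAX-binding repressor, went from -0.28 (standard error 0.068) to 0.38 (standard error 0.069), and *Ntn4*, a netrin of basement membranes, from -0.38 (standard error 0.084) to 0.34 (standard error 0.084). With library size alone *Ntn4* was just under a fold of 1.2, at 0.261, and it was not called against a fold of 1.2 (adjusted p = 0.162 from edgeR's glmTreat). The count of 4 was 1 without DKO replicate 3 under DMSO, 2 without WT replicate 2 under DMSO and 7 without DKO replicate 1 under DMSO.

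Some of the largest genotype differences under MK-8722, among genes that averaged 2 log2 CPM or more and whose genotypes did not overlap, were also present under DMSO. *Cd34*, a surface glycoprotein of progenitor cells, stood at 359.9 to 369.6 CPM in WT and 0.309 to 0.602 CPM in DKO under MK-8722, a log2 difference of -9.76 (standard error 0.21) against -9.97 (standard error 0.23) under DMSO. *Eif4g3*, a translation initiation factor gene, differed by -7.12 and -7.20, and *Nid1*, a basement membrane protein gene, by -6.71 and -6.74. The interferon-induced *Gvin1* and *Phf11d* were higher in DKO by 5.73 (standard error 0.57) and 5.19 (standard error 0.82). WT replicate 2, of passage 11, stood at 26.2 CPM of *Gvin1* against 3.21 to 6.01 CPM in the other WT libraries. *Gvin1* belongs to a family of similar genes, so its estimated counts are uncertain. None of these 5 genes had a called interaction, with adjusted p from 0.83 to 0.984 (edgeR).

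The torin1 contrast was not used to choose the genes, and its libraries are not shared with the DMSO and MK-8722 comparisons, apart from the common scaling and estimate of spread, through which leaving out WT replicate 1 under torin1 gave 136 alike and lower genes, 112 of them shared. They come from the same lines and passages as the other libraries, so they are another treatment and not separate cultures. Under torin1, 4283 genes (27.8%) were lower and 3692 (24%) higher in DKO. Of the 2916 genes alike under DMSO, 236 (8.09%) were lower and 237 (8.13%) higher. Of the 128 genes alike under DMSO and lower under MK-8722, 81 (63.3%) were lower under torin1 and 0 were higher, and 118 had a negative difference, with a median of -0.348 against 0.0142 over the genes alike under DMSO. *Amdhd2* and *Neu1* differed by -1.49 and -1.34 under torin1 (edgeR quasi-likelihood adjusted p = 8.20e-13 and 3.63e-14), and *Galc* by -1.20, against -0.80 under MK-8722. *Vat1* differed by -0.52, *Arap1* by -0.41 and *Clcn7* by -0.52, against -1.13, -0.79 and -0.80 under MK-8722, and the difference between the drugs was not tested. *Plin2* differed by -0.051 and was not called (edgeR quasi-likelihood adjusted p = 0.521).

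Of the 37 genes alike under DMSO and higher under MK-8722, 15 (40.5%) were higher under torin1 and 0 were lower, and 31 had a positive difference. *Tcp11l2*, *Chst1* and *Oip5* differed by 1.03, 0.78 and 0.45 under torin1. *Arhgef17* and *Nacc2* differed by -0.0069 and 0.034, and *H1f0* and *Vmac* by -0.17 and -0.21, none of which reached a fold of 1.2. The differences of *H1f0* and *Vmac* were opposite in sign to those under MK-8722 (edgeR quasi-likelihood adjusted p = 0.012 and 0.011). Without DKO replicate 3 under DMSO it was 8 of 25 (32%). With libraries scaled by library size alone, which moved the median torin1 difference over all genes from -0.0364 to -0.164, it was 9 of 28.

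**Figure D5:**
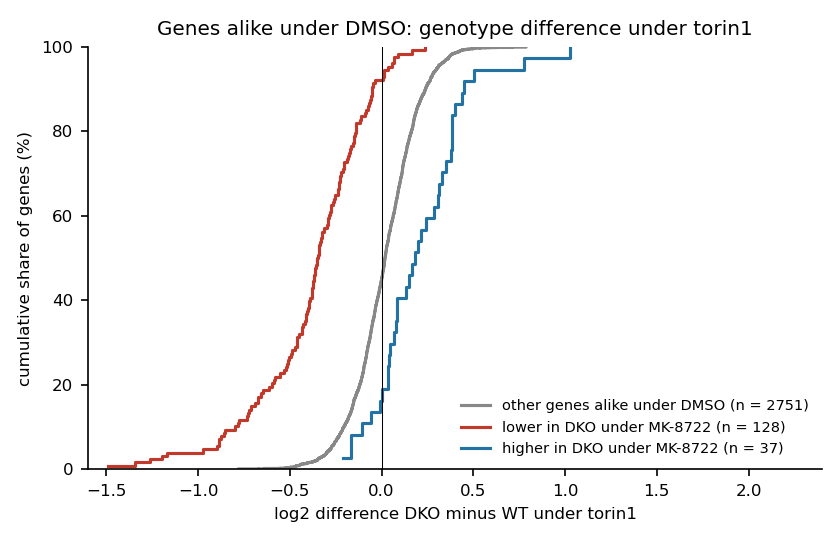
Cumulative share of genes (%) against the log2 difference DKO minus WT under torin1, for the 128 genes alike under DMSO and lower in DKO under MK-8722 (red), the 37 higher ones (blue) and the other 2751 genes alike under DMSO (grey). The red line is displaced to negative differences, where 118 of the 128 genes lie, and the blue line to positive ones, where 31 of the 37 lie.

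The cultures of passages 8, 9 and 11 exist for both genotypes and gave 3 differences under MK-8722 of 1 WT and 1 DKO library each. All 128 genes were lower and all 37 higher in DKO at each of the 3 passages, and in 113 and 30 of them the DMSO difference stayed within a fold of 1.2 at each passage. The libraries of these passages are among those that chose the genes. In all 128 and all 37 genes the genotypes did not overlap under MK-8722, so the direction at each passage was fixed beforehand and tests nothing. Over all genes tested, DKO lay wholly below WT for 27.9% and wholly above for 26.7%. Without the libraries of passage 11, 111 genes were alike under DMSO and lower under MK-8722, of which 93 were among the 128, and 40 were higher, of which 20 were among the 37. Without DKO replicate 3, the library with the RNA integrity number of 7.9, it was 121 and 33, of which 116 and 30 were shared. The count of 37 was 23 without DKO replicate 2 under DMSO and 57 without DKO replicate 4 under MK-8722.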

How the data were processed

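Poly(A) RNA libraries (24, from 2 MEF lines and 3 treatments) were sequenced as 52 bp read pairs. The authors ran nf-core/rnaseq with STAR and Salmon on GRCm38 with Ensembl 102 annotation and deposited estimated counts per gene and TPM per transcript. Gene counts, 24668921 to 33332562 per library, were rounded to whole numbers, and 15401 of 55487 genes passed filterByExpr (minimum count 10). The deposited TPM gave levels per length. Genotype contrasts and their interaction with treatment were fitted with edgeR 4.0.16 (quasi-likelihood, trended dispersion, TMM, Benjamini-Hochberg adjustment) to all 24 libraries without covariates, since the labels name 1 batch; the authors' batch removal was not repeated. Simulated data had changes planted in 200 of 14977 genes and no passage effect. Of the planted genes, 173 were called under MK-8722 (27 of 50 at a fold of 1.3 and 46 of 50 at 1.5). The alike group of the planted direction took fewer: 0, 13, 12 and 16 of 50 at folds of 1.3, 1.5, 2 and 4. The counts of alike genes are therefore not complete. Promoters came from RefSeq (GRCm38.p6) and positions from GENCODE M21. All columns of per-sample values were assigned. A few genes that the rule would name are not reported here. The members and lists were chosen with earlier results of these data known. Genes named by rule had a mean of at least 2 log2 CPM, no overlap of genotypes under MK-8722 and the largest differences of their kind. Added to them were the study's qPCR genes, the MiT/TFE family and up to 2 called genes per list and direction. These added genes needed neither the mean nor the separation. *Rragd* (-0.22), *Ctso* (1.25), *Dusp4* (1.49) and *Gpnmb* (1.59) averaged less than 2 log2 CPM. Alternatives covered scaling, filters, thresholds, tests (DESeq2 1.42.0, limma 3.58.1), blocks and left-out libraries. Same-numbered replicates correlated between -0.00161 and 0.335 across groups and were not treated as paired. Where nothing else is said, errors are standard errors of the fit.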

Additional observations from a re-analysis of the deposited data

Results flagged for a closer look

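The genotype difference itself differed between the treatments, by the interaction test, for 734 genes toward lower and 317 toward higher levels in DKO under MK-8722, and for 1341 and 961 with the culture as a block. Among the genes named by rule outside the alike groups, the MK-8722 difference minus the DMSO difference was -1.795 for *Dpp7*, -1.564 for *Ctns*, -1.414 for *Flcn*, -1.294 for *Dusp3*, -1.266 for *Fnip1* and -0.9332 for *Hexa* on the log2 scale. It was 1.023 for *Atoh8*, 0.7157 for *Ntn4*, 0.6527 for *Mxd4* and 0.1948 for *Tfe3*.

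In 14 of 168 groups of 4 libraries, 1 library stood far from the other 3 by Dixon's test, where chance gives about 1 in 20, or 8.4. In WT under DMSO these were replicate 4 for *Fnip1* (24.73 CPM) and *Oip5* (13.05 CPM), replicate 3 for *Arhgef17* (212.5 CPM), and replicate 2, of passage 11, for *Gvin1* (19.78 CPM) and *Phf11d* (7.047 CPM). In WT under MK-8722 they were replicate 4 for *Ctsa* (255.0 CPM), *H1f0* (229.4 CPM) and *Dpp7* (59.63 CPM), replicate 3 for *Ctns* (23.47 CPM), and replicate 2, of passage 11, for *Gvin1* (26.23 CPM) and *Phf11d* (8.707 CPM). In DKO they were *Eif4g3* under DMSO in replicate 2 (0.811 CPM) and, under MK-8722, *Slc38a7* in replicate 4 (47.52 CPM) and *Atoh8* in replicate 1 (5.561 CPM).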

How the results depend on the processing

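None of the 42 genes followed through the alternatives changed direction, while *Ntn4* and *Fnip1* lost their calls as given above. Leaving out each library in turn gave 3805 to 4069 genes lower and 3356 to 3649 higher under MK-8722, 111 to 148 alike and lower, 23 to 57 alike and higher, 45 to 54 turning lower, 1 to 7 turning higher, and 73 to 90 and 8 to 22 of the alike genes called the same way under torin1. The false discovery rate alone gave 69 alike and higher, 115 and 13 turning, and 129 and 37 under torin1. With the bound at a fold of 1.1, 22 were alike and lower and 7 alike and higher, with 15 and 4 called under torin1, and with alike taken as not called under DMSO these were 212, 71, 141 and 33. Without the interaction criterion 98 were alike and higher, 33 of them called under torin1. The passage as a block gave 65 and 23, and the culture as a block in the interaction (added after the data were seen) 72 and 25. Without the filter there were 23 alike and higher, 8 of them called under torin1, and 2 turning higher, and against a fold of 1.2 there were 21, 9 and 2. Library size alone left 9 called higher under torin1. The cause was not tested. With the replicate number as a block, which pairs nothing here, the counts were 3907, 3634, 137, 40, 52, 5, 84 and 16, and it changed no named call. Small changes can be missed: at 4 libraries per group and these depths, simulated folds of 1.3 were called in 27 of 50 genes. The simulation changed 200 of 14977 genes and held no passage effect, whereas 48.7% of the genes tested were called here. The cutoff set by the adjusted p therefore differs, and the share missed in these data is not known.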
